A study of Sus scrofa with 44 samples.

Results

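Collagens and the other genes of the extracellular matrix were followed through prenatal development of pig skeletal muscle, in transcript abundance and in methylation of their transcripts at N6-methyladenosine (m6A). The set was a written list of 43 genes, chosen by gene symbol. Of these, 40 were matched through the symbol of their Ensembl pig gene identifier among the 22427 genes of each expression file, and all 40 passed the filter on low values, a mean of at least 1 TPM (transcript abundance per length, scaled to the same total in every library). COL4A1, LAMA2 and TIMP2 were not matched and were not analysed here.

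The extracellular matrix of muscle is the network outside the fibres that carries force to the tendon and holds the cells in place. Fibrillar collagens form its cables, network collagens and laminins form the basement membrane around each fibre and blood vessel, and proteoglycans and matricellular proteins space the fibrils and signal to cells. In fetal muscle most fibrillar matrix is made by connective tissue cells between the fibres. m6A is a methyl mark on adenosines of messenger RNA, often found near stop codons and in long exons, and MeRIP-seq maps it by sequencing RNA fragments pulled down by an antibody against it beside the input RNA.

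The expression values came from 18 input libraries of the longissimus dorsi, the long muscle of the back, made from RNA depleted of ribosomal RNA. Each of 6 stages had 3 libraries, and the stages are named E33, E40, E50, E60, E70 and E95 after the day post coitus. The labels give the tissue and the stage of these groups and do not say whether the 3 libraries of a stage came from separate animals, so the p-values measure the spread between these samples, which may be technical. Bulk tissue was sequenced, and fewer cells of a type and less RNA per cell cannot be told apart in it. The m6A peaks came from 8 lists, 1 per muscle stage and 2 for PK15, a pig kidney cell line, from polyA-selected and from rRNA-depleted RNA. Each list stands alone without replicates, and PK15 expression was not analysed here.

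Every expression file summed to 1000000 TPM, so sequencing depth is unknown and the number of libraries sets the precision. The most abundant gene, which has no symbol, took 37.4% to 72.4% of each library's TPM, and the second most abundant gene held 17.3% in replicate 2 of E40 and 14.4% in replicate 3 of E50. The 40 matrix genes together held 0.213% to 1.27% of a library. TPM were therefore divided by a factor per library, the median ratio to the geometric mean over all libraries (0.303 to 1.99), and are called scaled TPM. Without this step the median of all 13334 genes tested shifted by -1.02 on the log2 scale from E33 to E95, against -0.00 with it, so each change below is given on the scaled values and, where the sign differs, as deposited. All log2 changes are on log2(TPM + 1), which understates the change of genes near 1 TPM.

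Marker lists were followed beside the matrix genes, and their sums do not tell the number of cells from RNA per cell. Skeletal muscle markers summed to 929.5 to 1109 scaled TPM at E33 and 14882 to 23461 at E95 over 7 of 8 markers matched, with 5 higher, 1 lower and 1 not called. Markers of neurons (4 of 5 matched) fell from 103 to 135 at E33 to 2.48 to 4.79 at E95, with 3 of 3 tested called lower. Cartilage markers (9 of 10 matched) summed to 68.1 to 89.2 at E33 and 33.6 to 43.9 at E95, with 3 higher and 4 lower of 7 tested, and 1 higher and 4 lower as deposited. Endothelial markers, all 6 matched, rose from 25.9 to 33.7 at E33 to 88.1 to 99.3 at E95, with 6 of 6 called higher on the scaled values and 0 of 6 as deposited. Fat cell markers, all 4 matched, summed to 0.666 to 1.92 at E33 and 24.9 to 96.6 at E95, where replicate 1 was the highest. Connective tissue markers (8 of 10 matched) were at 237 to 254 at E33 and 136 to 175 at E95, with 2 higher, 2 lower and 3 not called. As deposited PI16 was called higher and PDGFRA, DPT, TWIST2 and TCF7L2 lower. Within E40 the scaled sum of this list ran from 140 to 538. Red blood cell markers (3 of 4 matched) were at 83.3 to 233 at E33 and 13.5 to 26.3 at E95, with 1 of 3 called lower (HBZ, an embryonic globin) and 2 not called. Bone markers (4 of 6 matched) were at 63.98 to 72.2 at E33 and 29.9 to 49.6 at E95, with 1 of 2 tested called lower, and both as deposited.

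From E33 to E95 the log2 change was negative for 17 of the 40 matrix genes and positive for 2, POSTN and COL15A1, under all 4 scalings of the libraries, and its sign turned with the scaling for 21. On the scaled values 27 of 40 were called at an adjusted p under 0.05 (limma over 13334 genes), beside 46.7% of all genes tested. Of these, 15 were higher at E95, beside 22.8% of all genes, and 12 were lower, beside 23.8%. The median log2 change of the 40 was 0.19. On TPM as deposited 1 was higher (2.64% of all genes) and 17 were lower (45.8%), with a median of -0.96. Rescaling without the 2 most abundant genes gave 4 higher (8.9% of all genes) and 20 lower (52% of all genes), and quantile normalization gave 10 higher (22.2%) and 12 lower (24.4%). The same 12 genes were called lower under all 4 scalings: TNC, COL9A1, COL2A1, FBLN1, FBN2, FN1, COL12A1, COL18A1, VCAN, COL5A1, LUM and LAMA4. COL15A1 alone was called higher under all 4. SPARC, COL4A2 and LAMC1 were called higher under all but the deposited scale. NID1, COL6A3, HSPG2, COL14A1, DCN and POSTN were called higher on the scaled and the quantile normalized values only. COL1A1, COL1A2, COL3A1, COL6A1 and COL6A2 were called higher on the scaled values alone. The median log2 change of all genes was itself -1.02 as deposited and -0.60 when rescaled, so agreement over the 4 scalings favours lower calls. The share of all genes that agreed over the 4 scalings was not counted. Over all 6 stages the F test called 29 of 40, beside 47.5% of all genes, and 12 as deposited, beside 20.1%. Leaving out replicate 2 of E40 and replicate 3 of E50 as well raised that last count from 12 to 27, beside 71.7% of all genes in the same fit.

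**Figure D1:**
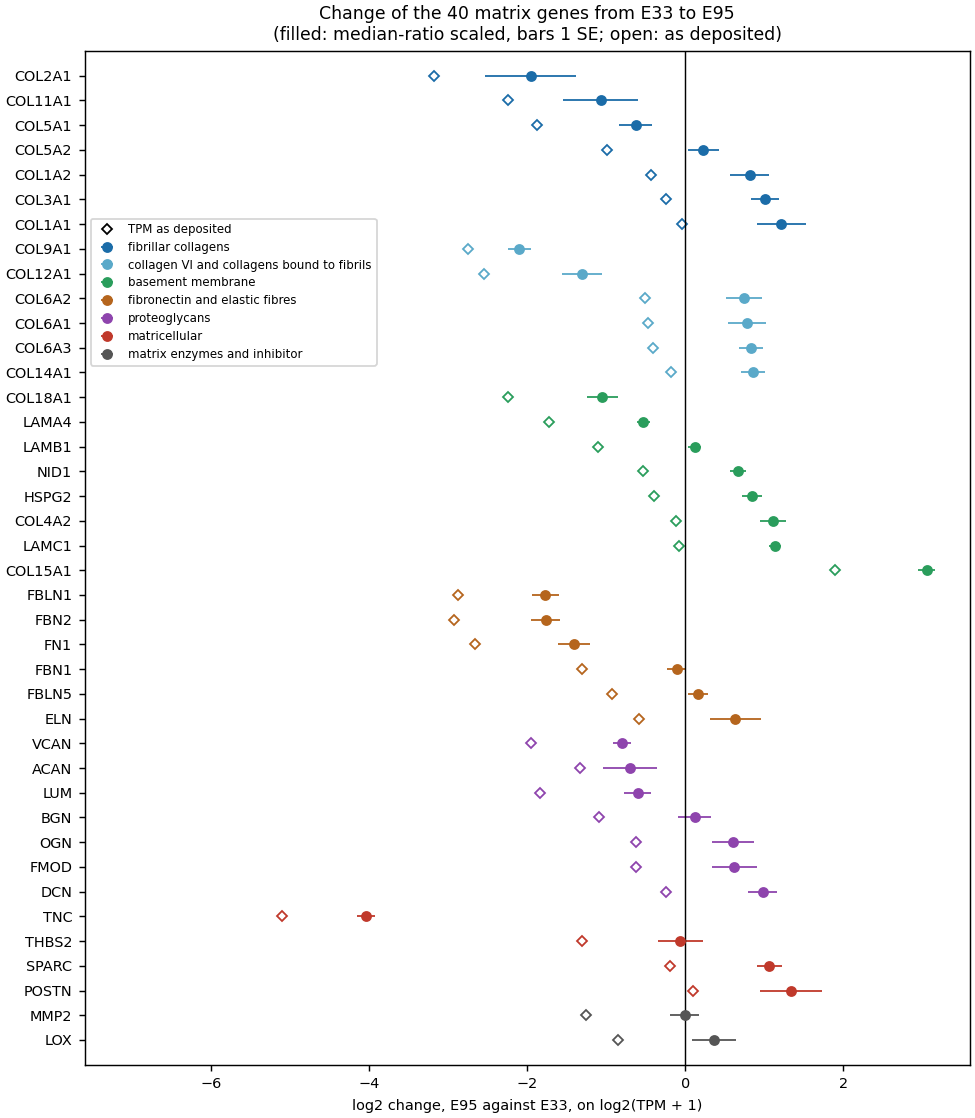
Log2 change of each of the 40 matrix genes from E33 to E95 on log2(TPM + 1), grouped by role. Filled circles are median-ratio scaled values with bars of 1 SE and open diamonds are TPM as deposited. TNC lies far to the left at -4.04 and COL15A1 to the right at 3.05 on the scaled values, and every diamond lies left of its circle.

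The 7 fibrillar collagens, which assemble into the load-bearing fibrils, held most of the matrix transcript abundance. Their summed scaled TPM ran from 2903 to 3843 at E33 and from 5753 to 8853 at E95. This rise of the sum is given for the scaled values only, and the sum was not taken as deposited. The median log2 change of the 7 from E33 to E95 was 0.23 on the scaled values and -0.99 as deposited. COL1A1, COL1A2 and COL3A1 rose and COL2A1 and COL5A1 fell on the scaled values, while COL5A2 and COL11A1 did not pass the test. COL1A1 encodes the main chain of type I collagen. COL1A1 measured 2103, 1586 and 2217 scaled TPM in the E33 libraries, 1966, 3538 and 2549 at E40 and 1864, 1978 and 2588 at E50. COL1A1 then measured 5248, 3525 and 2309 at E60, 2352, 3912 and 3957 at E70 and 5754, 4268 and 3796 at E95. All 3 libraries of E95 stood above those of E33 while those of E60 alone spread from 2309 to 5248. Its scaled level rose by 1.22 on the log2 scale (SE 0.308, adjusted p = 0.00470), whereas the deposited values changed by -0.04 and overlapped. COL3A1 measured 640.2, 559 and 689.6 scaled TPM in the E33 libraries, 781, 1044 and 853 at E40 and 994, 900.2 and 1083 at E50. COL3A1 then measured 992, 928 and 772 at E60, 1057, 1131 and 1259 at E70 and 1637, 1300.5 and 948 at E95. COL3A1, the chain of type III collagen of loose and fetal connective tissue, was lowest at E33 and rose by 1.01 (SE 0.181, adjusted p = 3.58e-04) on the scaled values, against -0.25 as deposited. COL1A2, the second chain of type I collagen, rose by 0.82 (SE 0.248, adjusted p = 0.0142), against -0.44 as deposited. Without replicate 1 of E95 its adjusted p was 0.065.

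COL2A1 and COL5A1 were the fibrillar collagens that fell, under all 4 scalings. COL2A1 encodes the cartilage collagen. COL2A1 measured 89.1, 65.4 and 97.98 scaled TPM in the E33 libraries, 50.2, 90.4 and 74.9 at E40 and 10.2, 22.3 and 26.1 at E50. COL2A1 then measured 90.5, 40.4 and 21.4 at E60, 4.03, 26.3 and 18.3 at E70 and 23.7, 18.1 and 20.4 at E95. The E33 libraries all stood above those of E95, and the change was -1.96 (SE 0.576, adjusted p = 0.0121). Within E50, E60 and E70 its lowest and highest libraries lay more than 2-fold apart. COL11A1 measured 25.00, 18.3 and 23.2 scaled TPM in the E33 libraries, 18.9, 31.8 and 27.9 at E40 and 5.04, 13.4 and 11.4 at E50. COL11A1 then measured 33.4, 15.8 and 9.45 at E60, 3.22, 14.2 and 9.51 at E70 and 11.1, 8.23 and 10.7 at E95. COL11A1, which co-assembles with type II collagen, changed by -1.07 (SE 0.474, adjusted p = 0.0785) on the scaled values and did not pass the test, but was called lower at -2.24 as deposited (adjusted p = 0.00486) and -1.75 when rescaled without the 2 most abundant genes (adjusted p = 0.00674). Without replicate 1 of E70 its adjusted p on the scaled values was 0.0407. COL5A1, which nucleates type I fibrils, fell by 0.63 (SE 0.211, adjusted p = 0.0242). That call was lost in 4 of the fits that left out 1 library of E33 or E95. COL5A2 had its lowest mean at E33 (23.7 ± 1.62 scaled TPM, SD, n = 3) and its highest at E40 (48.9 ± 7.91), and its change of 0.23 to E95, -0.99 as deposited, did not pass the test on the scaled values.

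In the group of type VI collagen and the collagens bound to fibrils, all 6 were called on the scaled values, 4 higher and 2 lower. COL6A1, COL6A2 and COL6A3 encode the 3 chains of the beaded filament network around muscle fibres. On the scaled values they rose together by 0.78, 0.74 and 0.83, against -0.47, -0.51 and -0.41 as deposited. Under quantile normalization COL6A1 and COL6A2 did not pass the test (limma adjusted p = 0.106 and 0.0701). When rescaled without the 2 most abundant genes none of the 3 passed (0.623, 0.703 and 0.295). COL6A3 measured 60.1, 43.3 and 56.6 scaled TPM in the E33 libraries, 91.9, 102 and 89.3 at E40 and 89.6, 81.2 and 96.8 at E50. COL6A3 then measured 90.4, 85.4 and 65.8 at E60, 69.6, 76.98 and 68.2 at E70 and 111, 90.2 and 85.4 at E95. Most of its scaled rise lay between E33 and E40, with no overlap of those libraries. Leaving out replicate 1 of E95 ended the calls of COL6A1 (adjusted p = 0.078) and COL6A2 (adjusted p = 0.0634), and leaving out replicate 2 of E33 did the same (0.0604 and 0.0511). COL14A1 measured 2.76, 3.38 and 3.30 scaled TPM in the E33 libraries, 4.41, 4.56 and 4.66 at E40 and 4.41, 5.74 and 4.90 at E50. COL14A1 then measured 7.69, 5.39 and 4.43 at E60, 4.85, 6.35 and 5.30 at E70 and 7.23, 5.55 and 6.81 at E95. COL14A1, a collagen on the fibril surface, rose by 0.86 (SE 0.152, adjusted p = 3.14e-04) on the scaled values, against -0.18 as deposited, from a low level.

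COL9A1 and COL12A1 fell under every scaling. COL9A1 encodes a chain of the type IX collagen that coats type II fibrils. COL9A1 measured 4.06, 3.42 and 4.27 scaled TPM in the E33 libraries, 0.796, 0.948 and 0.592 at E40 and 0.145, 0.101 and 0.143 at E50. COL9A1 then measured 0.268, 0.319 and 0.238 at E60, 0.268, 0.545 and 0.290 at E70 and 0.0848, 0.236 and 0.116 at E95. Only the E33 libraries were above 1 scaled TPM. From E33 to E95 it fell by 2.10 on the log2 scale (SE 0.145, adjusted p = 3.26e-08). COL9A3, another chain of the same collagen, measured 20.6, 15.1 and 23.2 scaled TPM at E33 and 4.98, 3.01 and 4.10 at E95, the bone regulator RUNX2 4.47, 3.84 and 4.21 and 0.0709, 0.0874 and 0.136, and the cartilage regulator SOX9 43.8, 42.9 and 54.8 and 13.1, 10.3 and 10.3. Others of the same cartilage list were called higher on the scaled values: SOX6 changed by 1.19 (adjusted p = 1.38e-05), against 0.14 as deposited, and HAPLN1 by 0.77 (adjusted p = 0.00225), against 0.15. COMP, listed at 0 in all 3 libraries of E33, measured 15.7, 9.41 and 12.03 scaled TPM at E95 and was called higher on both scales. The part of cartilage or bone in these samples was not tested. COL12A1 measured 81.1, 76.2 and 95.1 scaled TPM in the E33 libraries, 112, 127 and 106 at E40 and 86.3, 116 and 81.1 at E50. COL12A1 then measured 122, 106 and 67.02 at E60, 43.3, 91.5 and 68.4 at E70 and 38.6, 29.2 and 32.2 at E95. COL12A1, a fibril-bound collagen of tendon and muscle sheath, had its highest mean at E40 and fell by 1.31 (SE 0.254, adjusted p = 6.58e-04) from E33 and by 0.95 (SE 0.254, adjusted p = 0.0227) from E70 to E95.

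**Figure D2:**
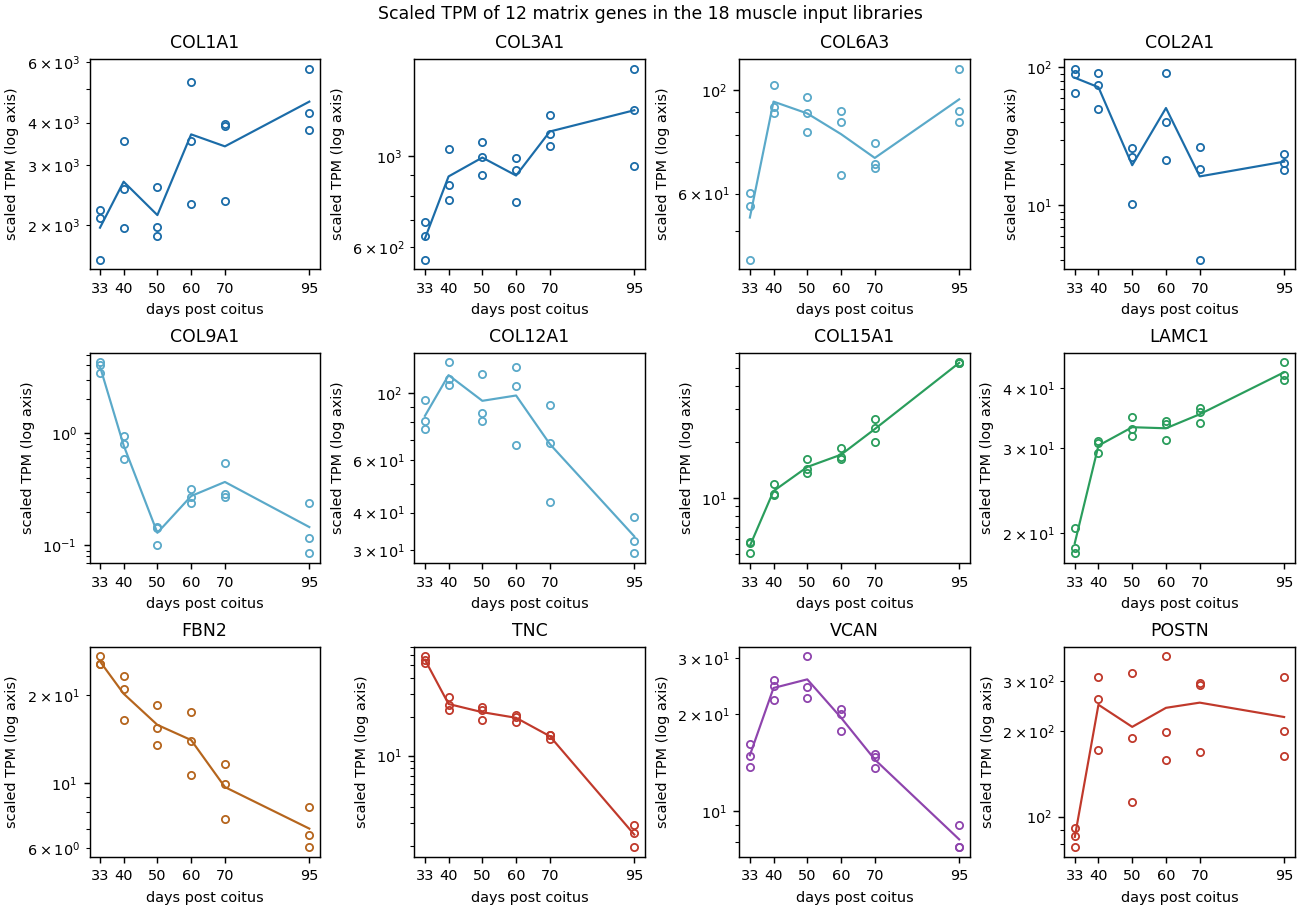
Scaled TPM (log axis) of 12 matrix genes against days post coitus. Open circles are single libraries, 3 per stage, and lines join the stage means. COL15A1 climbs at each stage mean from 5.53 to 53.1, TNC falls from 55.4 to 2.44, and VCAN peaks at E50 before falling to 8.14.

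Among the 8 basement membrane genes 5 were called higher, 2 lower and 1 was not called on the scaled values. COL15A1 encodes a collagen that ties the basement membrane to the fibrils around it. COL15A1 measured 5.04, 5.78 and 5.76 scaled TPM in the E33 libraries, 10.3, 11.8 and 10.5 at E40 and 16.1, 14.3 and 13.6 at E50. COL15A1 then measured 16.6, 18.5 and 16.1 at E60, 26.4, 20.1 and 23.8 at E70 and 52.9, 53.1 and 53.5 at E95. The libraries of a stage lay within a narrow band and those of E95 stood far above all others. The mean went from 5.53 ± 0.426 to 53.1 ± 0.275 scaled TPM (SD, n = 3), a rise of 3.05 on the log2 scale (SE 0.102, adjusted p = 6.17e-11). As deposited it measured 5.95, 11.5 and 10.8 TPM at E33 and 34.2, 30.6 and 46.1 at E95, a rise of 1.89 (adjusted p = 0.00424). LAMC1 measured 18.2, 18.6 and 20.5 scaled TPM in the E33 libraries, 31.04, 29.3 and 30.9 at E40 and 32.9, 34.8 and 31.9 at E50. LAMC1 then measured 31.2, 33.8 and 34.2 at E60, 36.4, 33.95 and 35.7 at E70 and 45.3, 41.7 and 42.6 at E95. LAMC1, the gamma chain shared by most laminins, rose by 1.14 (SE 0.0738, adjusted p = 1.82e-08) on the scaled values and changed by -0.08 as deposited. COL4A2 (1.11), the type IV network collagen, HSPG2 (0.85), the proteoglycan perlecan, and NID1 (0.67), the linker nidogen, rose as well on the scaled values, against -0.12, -0.40 and -0.54 as deposited. Without replicate 2 of E40 and replicate 3 of E50 the deposited value of NID1, with the same log2 change, was called lower. The endothelial markers given above rose alongside, and their part was not tested.

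COL18A1 and LAMA4 fell while their basement membrane partners rose on the scaled values. COL18A1 measured 28.2, 22.9 and 29.3 scaled TPM in the E33 libraries, 25.3, 33.5 and 25.1 at E40 and 32.96, 21.4 and 30.6 at E50. COL18A1 then measured 20.4, 29.5 and 21.2 at E60, 19.6, 15.3 and 18.8 at E70 and 14.7, 12.8 and 10.1 at E95. COL18A1, the source of the fragment endostatin, fell by 1.05 (SE 0.194, adjusted p = 4.38e-04), with E70 and E95 as the lowest stage means. LAMA4 measured 20.8, 23.8 and 24.1 scaled TPM in the E33 libraries, 26.1, 23.2 and 26.7 at E40 and 24.5, 26.6 and 23.7 at E50. LAMA4 then measured 16.4, 18.1 and 17.1 at E60, 16.3, 16.6 and 16.2 at E70 and 16.04, 15.1 and 15.3 at E95. LAMA4, the alpha chain of vessel and embryonic muscle laminin, stepped down between E50 and E60, with no overlap of those libraries, and fell by 0.53 (SE 0.0802, adjusted p = 7.76e-05) from E33 to E95. LAMB1 had its lowest mean at E33 (43.3 ± 1.77) and its highest at E50 (57.4 ± 2.22 scaled TPM, SD, n = 3), and its change of 0.12 to E95, -1.11 as deposited, did not pass the test.

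The 6 genes of fibronectin and elastic fibres held 3 that fell and none that rose on the scaled values. FN1 encodes fibronectin, the cell-binding glycoprotein of early matrix. FN1 measured 225, 234 and 257 scaled TPM in the E33 libraries, 96.9, 133 and 127 at E40 and 71.6, 71.3 and 85.8 at E50. FN1 then measured 98.1, 115 and 66.8 at E60, 93.2, 131 and 118 at E70 and 106, 91.7 and 72.3 at E95. The drop came between E33 and E40, by 1.01 (SE 0.202, adjusted p = 0.00295), and from E33 to E95 it reached 1.41 (SE 0.202, adjusted p = 4.64e-05). FBN2 measured 25.5, 25.6 and 27.2 scaled TPM in the E33 libraries, 16.5, 20.95 and 23.3 at E40 and 13.5, 18.5 and 15.5 at E50. FBN2 then measured 17.5, 13.96 and 10.7 at E60, 7.55, 11.7 and 9.96 at E70 and 8.30, 6.68 and 6.06 at E95. FBN2, the fibrillin of fetal microfibrils, declined from one stage mean to the next and fell by 1.77 (SE 0.186, adjusted p = 2.43e-06). FBN1, the fibrillin that persists in adult tissue, ranged from 14.7 to 22.4 scaled TPM over all 18 libraries and changed by -0.11, which did not pass the test on the scaled values. It was called lower at -1.31 as deposited (adjusted p = 0.0372) and -0.76 when rescaled without the 2 most abundant genes (adjusted p = 4.22e-04). FBLN1 measured 16.8, 15.2 and 19.6 scaled TPM in the E33 libraries, 11.1, 18.1 and 12.9 at E40 and 8.86, 10.9 and 10.8 at E50. FBLN1 then measured 11.6, 7.85 and 7.95 at E60, 5.12, 5.56 and 6.03 at E70 and 4.80, 4.41 and 3.78 at E95. FBLN1, a glycoprotein bound to fibronectin and elastin, fell by 1.77 (SE 0.170, adjusted p = 9.79e-07).

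ELN and FBLN5 did not pass the test from E33 to E95, although all 3 libraries of E95 stood above those of E33 for both on the scaled values (as deposited ELN overlapped and FBLN5 was lower in all 3). ELN measured 23.1, 18.3 and 21.9 scaled TPM in the E33 libraries, 10.9, 16.8 and 10.2 at E40 and 15.3, 14.1 and 12.7 at E50. ELN then measured 27.5, 20.1 and 10.4 at E60, 8.56, 17.5 and 15.4 at E70 and 45.8, 33.3 and 23.9 at E95. ELN encodes elastin. It changed by 0.63 (SE 0.326, adjusted p = 0.126) from E33, or -0.58 as deposited, and rose by 1.26 (SE 0.326, adjusted p = 0.0185) from E70 to E95, where its 3 libraries lay between 23.9 and 45.8 scaled TPM. As deposited the E70 to E95 change was 0.73 (adjusted p = 0.643). FBLN5 measured 5.33, 5.68 and 5.90 scaled TPM in the E33 libraries, 4.02, 3.69 and 4.18 at E40 and 3.76, 5.11 and 5.26 at E50. FBLN5 then measured 4.46, 5.13 and 3.48 at E60, 4.33, 4.67 and 5.41 at E70 and 7.13, 5.94 and 6.17 at E95. FBLN5, which organises elastic fibres, dipped at E40 by 0.42 (SE 0.126, adjusted p = 0.0299) and stood at 0.16 from E33 to E95, against -0.93 as deposited.

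Proteoglycans gave 1 higher, 2 lower and 4 not called of 7 on the scaled values. DCN measured 20.9, 25.6 and 25.8 scaled TPM in the E33 libraries, 42.8, 45.5 and 49.05 at E40 and 38.6, 59.3 and 48.5 at E50. DCN then measured 52.1, 41.9 and 37.00 at E60, 43.4, 64.3 and 56.3 at E70 and 54.9, 49.7 and 41.2 at E95. DCN, the small proteoglycan decorin that coats collagen fibrils, was lower in the 3 libraries of E33 than in any later library and rose by 0.98 (SE 0.181, adjusted p = 4.40e-04) on the scaled values against -0.24 as deposited. FMOD measured 58.3, 58.7 and 75.9 scaled TPM in the E33 libraries, 72.1, 104 and 96.4 at E40 and 55.4, 79.3 and 73.1 at E50. FMOD then measured 136, 80.6 and 62.5 at E60, 51.8, 101 and 92.1 at E70 and 119, 85.4 and 94.8 at E95. FMOD, fibromodulin, changed by 0.62 (SE 0.287, adjusted p = 0.0910), or -0.62 as deposited, and did not pass the test, with replicate 1 of E60 the highest library of all. VCAN measured 14.9, 16.2 and 13.7 scaled TPM in the E33 libraries, 25.7, 22.2 and 24.6 at E40 and 22.4, 30.4 and 24.3 at E50. VCAN then measured 20.01, 17.7 and 20.8 at E60, 13.6, 15.01 and 14.8 at E70 and 9.01, 7.71 and 7.70 at E95. VCAN, the large proteoglycan versican of provisional matrix, rose from E33 to E40 by 0.66 (SE 0.112, adjusted p = 9.50e-04) on the scaled values, against -0.02 as deposited (adjusted p = 0.985), and fell from E70 to E95 by 0.76 (SE 0.112, adjusted p = 4.63e-04). Over the whole span it fell by 0.80 (SE 0.112, adjusted p = 3.97e-05). LUM, lumican, fell by 0.60 (SE 0.174, adjusted p = 0.0108), a call that was lost without replicate 3 of E95 (adjusted p = 0.0563). ACAN measured 1.32, 1.27 and 1.90 scaled TPM in the E33 libraries, 0.496, 1.43 and 1.13 at E40 and 0.187, 0.327 and 0.427 at E50. ACAN then measured 2.73, 1.13 and 0.124 at E60, 0.0971, 0.635 and 0.695 at E70 and 0.608, 0.383 and 0.605 at E95. ACAN, the cartilage proteoglycan aggrecan, stayed below 3 scaled TPM in every library and changed by -0.70 (SE 0.337, adjusted p = 0.104), which did not pass the test on the scaled values. It was called lower at -1.33 as deposited (adjusted p = 0.0159) and -1.45 when rescaled without the 2 most abundant genes (adjusted p = 0.0305), and its adjusted p on the scaled values was 0.0425 without replicate 1 of E60 and 0.0342 without replicate 3 of E60. OGN (0.60, as deposited -0.63) and BGN (0.12, as deposited -1.09) did not pass on the scaled values either.

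TNC showed the steepest fall of the 40. It encodes tenascin-C, a matricellular protein of embryonic tendon and muscle that is scarce in most adult tissue. TNC measured 55.3, 51.8 and 59.1 scaled TPM in the E33 libraries, 22.5, 28.3 and 24.6 at E40 and 22.5, 18.7 and 23.9 at E50. TNC then measured 18.2, 20.7 and 19.9 at E60, 14.5, 13.5 and 14.4 at E70 and 2.88, 2.50 and 1.95 at E95. The E33 libraries all stood above those of every later stage, and the E95 libraries below those of every earlier one. The mean went from 55.4 ± 3.66 at E33 to 2.44 ± 0.468 at E95 (SD, n = 3), a fall of 4.04 on the log2 scale (SE 0.118, adjusted p = 1.45e-11). It fell in 2 steps that passed the test, by 1.11 from E33 to E40 (adjusted p = 1.99e-05) and by 2.15 from E70 to E95 (adjusted p = 1.99e-07). As deposited it measured 65.3, 103 and 110.5 TPM at E33 and 1.86, 1.44 and 1.68 at E95, a fall of 5.11 (adjusted p = 1.53e-07).

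None of the other 3 matricellular genes was called lower on the scaled values. POSTN measured 78.1, 85.3 and 91.3 scaled TPM in the E33 libraries, 172, 312 and 261 at E40 and 112, 321 and 189 at E50. POSTN then measured 368, 199 and 159 at E60, 169.5, 296 and 291 at E70 and 311, 199.7 and 163 at E95. POSTN, periostin of tendon and periosteum, was lowest in all 3 libraries of E33 and spread widely within each later stage. It rose by 1.34 (SE 0.394, adjusted p = 0.0119) on the scaled values, against 0.09 as deposited, and without replicate 1 of E95 its adjusted p was 0.0576. SPARC, a collagen-binding glycoprotein, rose by 1.06 (SE 0.159, adjusted p = 7.30e-05) from 357 ± 33.7 to 753 ± 135 scaled TPM (SD, n = 3), against -0.19 as deposited. THBS2, a thrombospondin, changed by -0.06 on the scaled values and did not pass the test, but was called lower at -1.30 as deposited (adjusted p = 0.0314) and -0.72 when rescaled without the 2 most abundant genes (adjusted p = 0.0319).

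The enzymes gave no call on the scaled values between E33 and E95. LOX measured 25.4, 27.7 and 33.9 scaled TPM in the E33 libraries, 30.6, 43.4 and 42.5 at E40 and 23.1, 41.1 and 35.8 at E50. LOX then measured 55.5, 34.6 and 27.2 at E60, 26.9, 44.2 and 42.2 at E70 and 43.2, 40.98 and 29.7 at E95. LOX, which crosslinks collagen and elastin, changed by 0.37 (SE 0.279, adjusted p = 0.301), or -0.86 as deposited. MMP2 measured 103, 96.2 and 130.1 scaled TPM in the E33 libraries, 82.97, 117 and 93.2 at E40 and 114, 106 and 146 at E50. MMP2 then measured 134, 123 and 119.8 at E60, 117, 145 and 146 at E70 and 135, 108 and 87.6 at E95. MMP2, a gelatinase, changed by -0.01 (SE 0.180, adjusted p = 0.983), and its deposited change was -1.26 (adjusted p = 0.0319).

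Between consecutive stages, the first interval carried most of the calls. From E33 to E40, 9 of 40 rose on the scaled values, beside 10.1% of all genes, and 4 fell, beside 10.9%. The 9 were, with the deposited change in parentheses, COL5A2 (0.30), COL6A3 (0.11), COL15A1 (0.23), NID1 (-0.02), LAMC1 (-0.05), DCN (0.20), OGN (0.20), VCAN (-0.02) and POSTN (0.77), and the 4 were TNC, COL9A1, FN1 and FBLN5. POSTN had the largest change, 1.50 (SE 0.394, adjusted p = 0.0159). As deposited 3 were called, TNC, COL9A1 and FN1, all lower, beside 4.66% of all genes. From E40 to E50 the call rate was 1.54% of all genes and 1 matrix gene was called, COL9A1, which fell by 0.65 (SE 0.145, adjusted p = 0.0390), a call lost in 14 of 18 fits without 1 library. From E50 to E60 it was 0.817% and 2 were called, LUM, which fell by 0.97 (SE 0.174, adjusted p = 0.0167), and LAMA4, which fell by 0.51 (SE 0.0802, adjusted p = 0.00798), against -0.16 and 0.27 as deposited. From E60 to E70 it was 1.76% and 1 was called, COL15A1, which rose by 0.43 at an adjusted p of 0.0495, against 0.11 as deposited. No matrix gene was called in this interval in 14 of 18 fits without 1 library. From E70 to E95 it was 13.5% and 6 were called, COL15A1 (1.16, as deposited 0.62), LAMC1 (0.28, as deposited -0.25) and ELN higher and TNC, VCAN and COL12A1 lower, of which TNC alone was called as deposited.

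Libraries of 1 stage differed in a shared direction across many of the matrix genes. In E60, replicate 1 was the highest library of its stage for 23 of the 40 and replicate 3 the lowest for 31. In E70, replicate 1 was the lowest for 30, and in E95, replicate 1 was the highest for 36 and replicate 3 the lowest for 29. The same shares over all genes tested were not counted. A difference of the whole library can therefore not be told from one of the matrix genes. The tendon markers SCX, TNMD and MKX, all matched, summed to 74.7 scaled TPM in replicate 1 of E60 against 32.4 and 13.5 in the other two, and to 2.49 in replicate 1 of E70 against 28.3 and 12.5. In E50 they summed to 4.91, 30.5 and 10.2, where replicate 3 was the highest for 18 of the 40 and replicate 2 for 16. In E33 they summed to 55.0, 25.8 and 35.45, where replicate 3 was the highest for 28 of the 40 and replicate 1 for 6. In E40 they summed to 49.5, 79.9 and 69.8, where replicate 2 was the highest for 29 of the 40. SCX was listed at 0 in all 3 libraries of E95, in 2 of E50 and in 1 each of E60 and E70. COMP, a cartilage and tendon protein, measured 30.3, 14.6 and 0.991 in the E60 libraries and 0.469, 9.95 and 8.77 in those of E70. COL2A1, COL11A1 and ACAN had their highest E60 value in replicate 1 and their lowest E70 value in replicate 1. The E95 libraries differed little in the tendon sum, 7.29 to 9.18, while ADIPOQ measured 30.8, 2.47 and 2.23 there, highest in the same replicate 1. The part of tendon, cartilage or fat in these differences was not tested.

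**Figure D3:**
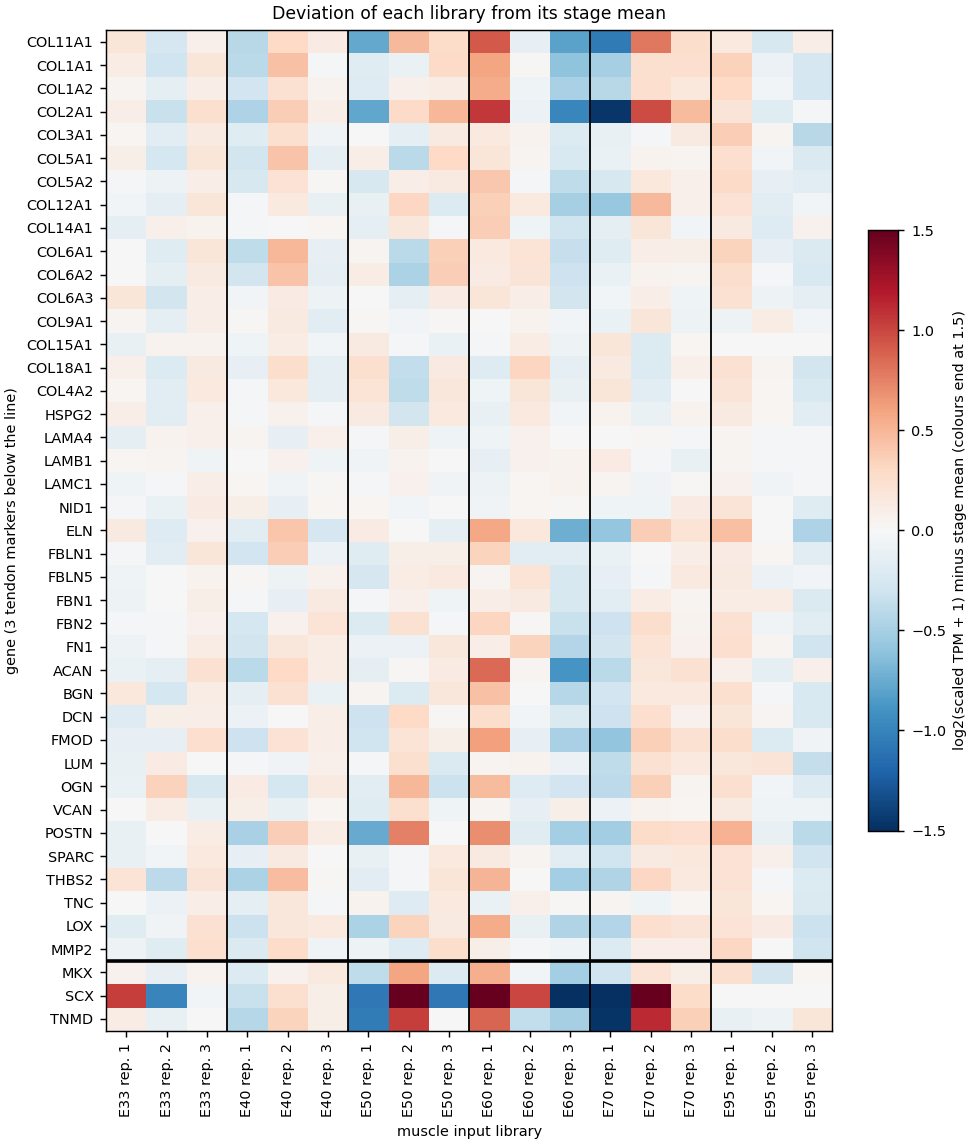
Deviation of each of the 18 libraries from its stage mean, as log2(scaled TPM + 1), for the 40 matrix genes and, below the line, 3 tendon markers. Red is above and blue below the stage mean. Replicate 1 of E60 is red and replicate 1 of E70 blue for most fibrillar collagens and for SCX and TNMD, with 30 of 40 genes lowest of their stage in the latter.

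Genes that make, crosslink, bind or signal to the matrix were counted from written lists chosen with earlier results in view. Over all genes tested, 22.8% were called higher and 23.8% lower on the scaled values, and 2.64% and 45.8% as deposited. In collagen biosynthesis 17 of 20 were tested from E33 to E95, with 2 higher, 8 lower and 7 not called on the scaled values, and 0 higher and 13 lower as deposited. P4HA3, a prolyl hydroxylase subunit, fell by 2.27 (adjusted p = 1.17e-09) and FKBP10, a collagen chaperone, by 1.17 (adjusted p = 2.90e-06), while PCOLCE, an enhancer of procollagen cleavage, rose by 1.01 (adjusted p = 0.00357) against -0.24 as deposited. In crosslinking and turnover 14 of 18 were tested, with 3 higher and 6 lower, and 1 higher and 8 lower as deposited. TGM2, a transglutaminase, rose by 1.87 on the scaled and 0.96 on the deposited values, LOXL4 rose by 1.19 against 0.25 as deposited, and LOXL1 fell by 1.00. Among matrix receptors 20 of 21 were tested, with 6 higher and 10 lower, and 0 higher and 12 lower as deposited. The laminin receptor subunit ITGA7 rose by 2.16 against 0.96 as deposited, and the syndecans SDC3 and SDC1 fell by 2.41 and 2.12. Among other collagens 12 of 20 were tested, with 3 higher and 8 lower, and 0 higher and 9 lower as deposited. COL8A2 and COL8A1, the chains of a short-chain collagen, fell by 3.15 and 2.89, and COL11A2 rose by 2.48 (adjusted p = 0.00578) against 1.35 as deposited. In TGF-beta signalling to matrix all 17 were tested, with 3 higher and 4 lower, and 0 higher and 9 lower as deposited. The ligand TGFB1 rose by 1.47, against 0.45 as deposited, while TGFB3 fell by 0.83 and TGFBI, a matrix protein induced by the pathway, by 0.99. The medians over the tested genes were -0.31, -0.14, -0.24, -1.56 and -0.08 in this order, beside -0.00 over all genes.

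m6A peaks lay on most of the matrix genes in muscle. Of the 40, 29 held at least 1 peak in the E33 list, beside 33.5% of all genes of at least 1 TPM at that stage. The E40 list gave 27 (22.9% of all such genes) and the E50 list 28 (32.6%). The E60 list gave 26 (31.7%), the E70 list 29 (35.6%) and the E95 list 33 (37.5%). The matrix genes are more abundant than most, and among genes of at least 10 TPM the share with a peak was 66.7% to 83.3% for matrix genes and 40.6% to 54.3% for all genes over the 6 lists. Their peaks had lower fold enrichments, with medians of 2.47, 3.25, 3.40, 2.94, 2.68 and 3.025 from E33 to E95. The medians of all peaks in the same lists were 3.51, 4.23, 4.88, 4.06, 4.22 and 4.42. The PK15 lists held peaks on 10 of the 40 from polyA RNA and 7 from rRNA-depleted RNA. PK15 expression was not analysed, so these counts have no share of expressed genes beside them and cannot be compared with those of muscle. The lists differed in length, from 4928 peaks at E40 to 8685 at E33, so that a peak absent from one list may have been missed there.

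COL2A1, COL3A1, COL9A1, ELN, DCN, ACAN and SPARC had no peak in any muscle list. COL3A1 and SPARC were among the most abundant of the 40, at 1295 ± 344 and 753 ± 135 scaled TPM at E95 (SD, n = 3). VCAN held 10 to 13 peaks per muscle list and COL6A3 9 to 14. The motif GGAC followed by any base but G, which is part of the sequence preference known for m6A, occurred 39 times in the 4768 bases of the RefSeq transcript of COL3A1 and 86 times in the 9441 of ACAN, both without a muscle peak, and 34 times in the 12085 of VCAN.

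**Figure D4:**
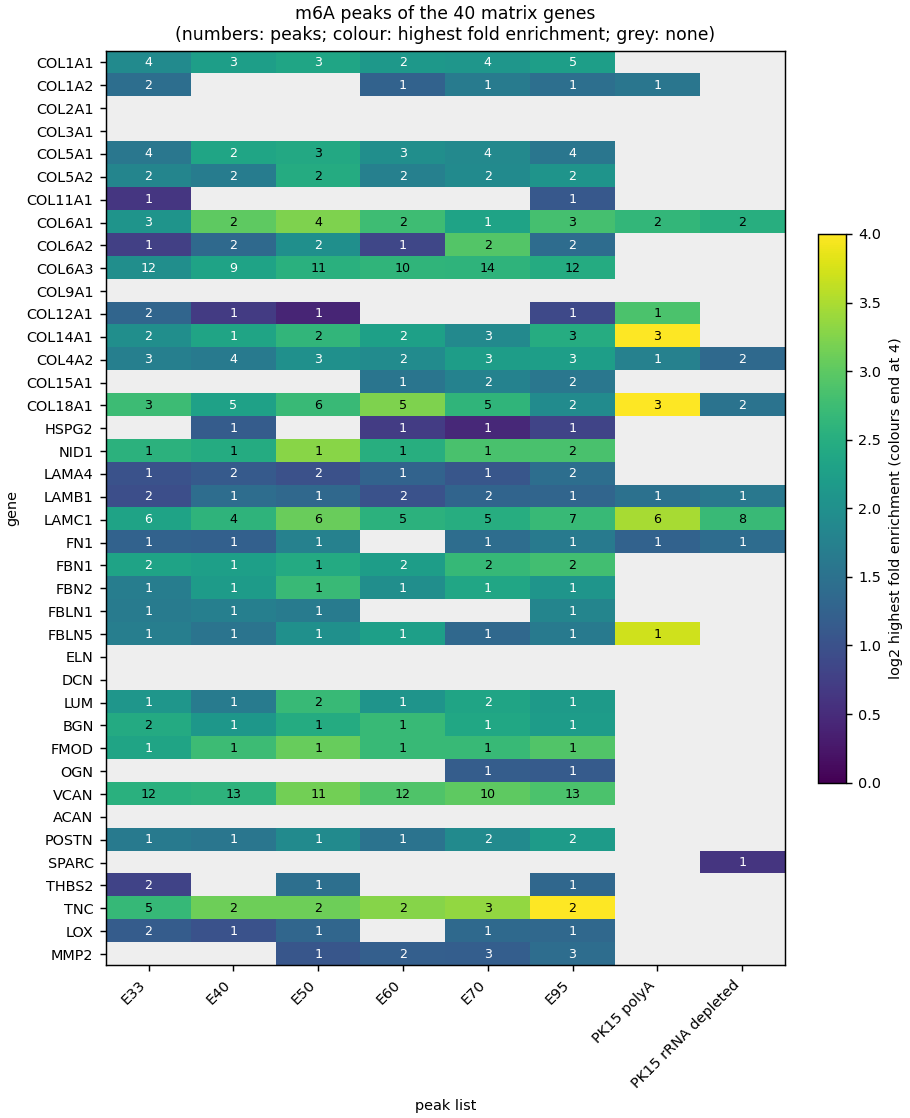
m6A peaks of the 40 matrix genes in the 6 muscle and 2 PK15 lists. Numbers are peaks per gene, colour is the log2 of the highest fold enrichment with colours ending at 4, and grey marks no peak. VCAN and COL6A3 hold the most peaks, 7 genes are grey in all muscle lists, and COL15A1 has peaks only from E60 on.

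Peaks that overlapped by at least 1 base were joined into 101 regions, of which 96 were seen in muscle. Of these, 40 were present in all 6 muscle lists, 16 in 1 muscle list only, and 5 regions were in all 8 lists, in COL18A1, COL4A2, COL6A1, LAMB1 and LAMC1. Shares over the peak regions of all genes were not counted. The fold enrichments below are the authors' values per peak, whose scaling is not given in the sources used here. Peaks were placed by their middle on the longest coding RefSeq transcript, and those without a transcript or off it were left out. At E33, 73 of 81 matrix peaks and 6622 of 8685 peaks of all genes were placed. Of the placed matrix peaks per muscle list, 55.4% to 69.0% lay in coding sequence and 17.1% to 23.0% within 200 bases of the stop codon. A further 10.3% to 18.9% lay further into the 3′ UTR. The shares of the placed peaks of all genes were 63.2% to 71.9%, 18.5% to 22.9% and 7.20% to 11.2%. At least 1 match to the same motif on the transcript strand was found in 66.7% to 73.2% of the matrix peaks per muscle list and in 65.0% to 68.5% of all peaks. On the opposite strand the shares were 42.3% to 52.4% and 40.2% to 44.0%. The median length was 210 to 240 bases for matrix peaks and 181 to 210 for all peaks. On the transcript strand the matrix peaks held 5.12, 6.08, 5.54, 5.32, 4.78 and 5.09 matches per kilobase from E33 to E95. All peaks held 5.71, 5.84, 5.91, 6.11, 5.74 and 5.68, more than the matrix peaks in every list but that of E40. A match is a description of the letters in the peak.

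The sequences under the peaks named here are printed from the RefSeq pig genome, build Sscrofa11.1, 5′ to 3′ on the strand of the gene, with each match to that motif in capitals. The first 3 come from the coding peaks of highest fold at E33 or E95, and the fourth from the late COL15A1 peak, chosen after its values were seen. For VCAN the E33 peak (fold 5.74) is printed. The VCAN coding peak at E95 (fold 7.29) was also among the highest, and the stretch taken from it held 0 matches, with 2 in the whole peak.
TNC coding peak at E95, chr1:255596690-255596869, minus strand: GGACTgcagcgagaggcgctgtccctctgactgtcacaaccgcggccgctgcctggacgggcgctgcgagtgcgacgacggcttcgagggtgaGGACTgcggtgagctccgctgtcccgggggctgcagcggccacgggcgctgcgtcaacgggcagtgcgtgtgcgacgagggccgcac
FMOD coding peak at E95, chr9:64070185-64070364, minus strand: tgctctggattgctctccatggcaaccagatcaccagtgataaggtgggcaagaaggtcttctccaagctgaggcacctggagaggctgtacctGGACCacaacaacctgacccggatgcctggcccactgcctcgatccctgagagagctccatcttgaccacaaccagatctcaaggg
VCAN coding peak at E33, chr2:91747064-91747243, plus strand: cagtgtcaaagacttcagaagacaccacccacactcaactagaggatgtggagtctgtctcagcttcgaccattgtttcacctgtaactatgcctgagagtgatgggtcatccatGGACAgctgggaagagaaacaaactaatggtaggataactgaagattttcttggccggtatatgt
COL15A1 coding peak at E95, chr1:240754872-240755051, plus strand: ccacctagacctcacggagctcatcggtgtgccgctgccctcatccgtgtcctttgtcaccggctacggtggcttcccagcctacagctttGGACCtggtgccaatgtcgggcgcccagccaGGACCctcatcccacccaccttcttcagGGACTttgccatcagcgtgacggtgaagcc

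The next 3 are coding stretches of the E95 peaks, shown because each of the 8 lists, muscle and kidney cells alike, has a peak on at least 1 base of them.
LAMB1 stretch under a peak in all lists, chr9:107688014-107688193, minus strand: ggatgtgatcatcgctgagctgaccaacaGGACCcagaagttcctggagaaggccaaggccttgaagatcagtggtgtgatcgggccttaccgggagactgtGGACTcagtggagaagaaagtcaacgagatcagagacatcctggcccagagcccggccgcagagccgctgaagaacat
COL4A2 stretch under a peak in all lists, chr11:77100029-77100148, plus strand: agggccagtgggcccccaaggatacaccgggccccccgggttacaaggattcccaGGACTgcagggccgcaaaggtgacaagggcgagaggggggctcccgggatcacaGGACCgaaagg
COL18A1 stretch under a peak in all lists, chr13:207970398-207970469, plus strand: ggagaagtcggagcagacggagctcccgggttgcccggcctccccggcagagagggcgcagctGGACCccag

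For peaks at or beyond the stop codon, and for COL6A1, whose symbol had no RefSeq transcript to place it on, a short window around the match nearest the middle of the peak is given.
NID1 near the stop codon, chr14:55345044-55345072, plus strand: ccccaggaagcaGGACCtgccgttgccct
LAMC1 window under a peak in all lists, chr9:124403793-124403821, plus strand: cctttgggtataGGACActgagccatccg
COL6A1 window under a peak in all lists, chr13:208312457-208312485, plus strand: aacgtgagaactGGACCccaatctcctga
COL18A1 3′ UTR, chr13:207983761-207983789, plus strand: cgagccagccggGGACAGGACTgggccgt
VCAN 3′ UTR, chr2:91810515-91810543, plus strand: ggcctggatggaGGACTtttctatgacca

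The TNC coding peak had the highest fold of any matrix peak in the E95 list. From E33 to E95 the highest fold in its region was 6.40, 8.69, 8.72, 9.67, 10.2 and 21.4, a higher value at each stage while the scaled TPM fell from 55.4 ± 3.66 to 2.44 ± 0.468. With 1 list per stage this order has no replicate check, and the median fold of all peaks went from 3.51 to 4.42 between the same 2 lists. The TNC peak covered 1289 exonic bases at E33 and 690 at E95, so these folds belong to stretches of unlike length. Input TNC was lowest at E95, and the part of this in the fold was not tested. A second coding region of TNC further upstream, region chr1:255600453-255600962, had folds of 2.63, 3.54, 3.80, 2.94 and 2.96 from E33 to E70 and was not in the E95 list. The TNC gene lies at chr1:255533235-255630381, on the minus strand.

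COL15A1, whose abundance rose most, had no peak at E33, E40 or E50. Its coding peak had folds of 2.94, 3.42 and 3.01 at E60, E70 and E95, and a peak near the stop codon had 2.35 and 2.32 at E70 and E95. At E33 the gene measured 5.04 to 5.78 scaled TPM, and whether the peak was below detection there was not tested. MMP2 likewise had no peak at E33 or E40, 1 at E50, 2 at E60 and 3 at both E70 and E95, while its scaled level changed by -0.01 from E33 to E95 and did not pass the test. OGN had a peak at E70 and E95 only. FBLN1 had no peak at E60 and E70, and COL12A1 none at those stages.

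VCAN carried 9 regions, the most after the 12 of COL6A3, of which 8 were in every muscle list. The coding region with the highest fold measured 5.74, 5.58, 8.86, 7.46, 8.03 and 7.29 from E33 to E95, and the 3′ UTR region measured 5.82, 6.03, 8.91, 6.07, 6.54 and 6.83. In that coding region the peak of highest fold covered 1770 exonic bases at E33 and 541 at E95, so the folds belong to peaks of unlike length. The first region, chr2:91699668-91710810, lay off the RefSeq transcript used. FMOD had a single region, in coding sequence, with 5.05, 6.70, 8.41, 6.45, 6.51 and 7.56. NID1 near the stop codon gave 5.96, 5.53, 9.79, 5.67, 7.23 and 7.23. These 3 genes had their highest fold at E50, the list with the highest median over all muscle peaks, 4.88.

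COL1A1, COL5A1 and COL5A2 had a region near the stop codon in all 6 muscle lists. In COL1A1 the region at the stop codon and into the 3′ UTR, chr12:26379657-26381339, measured 3.77, 4.72, 5.10, 4.40, 4.31 and 4.74 from E33 to E95, and a coding region next to it 2.35, 3.25, 2.82, 2.28, 2.22 and 2.58. The stop codon region of COL5A1 measured 3.00, 5.13, 5.33, 3.93, 3.70 and 2.98 and that of COL5A2 3.53, 3.21, 5.49, 3.33, 3.75 and 4.19. COL1A2, below COL1A1 and COL3A1 alone by mean scaled level at E95, had a peak in 4 muscle lists and none at E40 and E50. The fibrillins FBN1 and FBN2 had stop codon regions in all 6 stages, with 5.01, 4.80, 5.44, 4.70, 6.43 and 6.89 in FBN1 and 3.24, 4.60, 6.52, 3.94, 5.17 and 4.24 in FBN2, while FBN2 transcripts fell and FBN1 transcripts did not pass the test on the scaled values or quantile normalized and were called lower on the other 2 scalings.

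In the regions that all lists held, the PK15 folds lay within or above the range of the muscle stages. In the region of COL6A1 that all lists held, the folds were 4.18, 8.01, 9.35, 6.78, 4.97 and 7.10 across the muscle stages and 5.20 and 5.68 in PK15 from polyA and rRNA-depleted RNA. In LAMC1 they were 5.02, 6.04, 8.50, 5.95, 5.65 and 6.47, with 11.1 and 6.57 in PK15. In LAMB1 they were 1.94, 2.69, 2.55, 2.01, 2.44 and 2.46, with 2.80 and 3.04. The 3′ UTR region of COL18A1 had 6.72 at E33 and was in every muscle list but E95, with 23.1 and 2.87 in PK15. The polyA list had a median fold of 7.41 over all its peaks, above the 3.92 of the rRNA-depleted list, and muscle RNA was rRNA-depleted. SPARC had its only peak in PK15 from rRNA-depleted RNA, with a fold of 1.54.

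**Figure D5:**
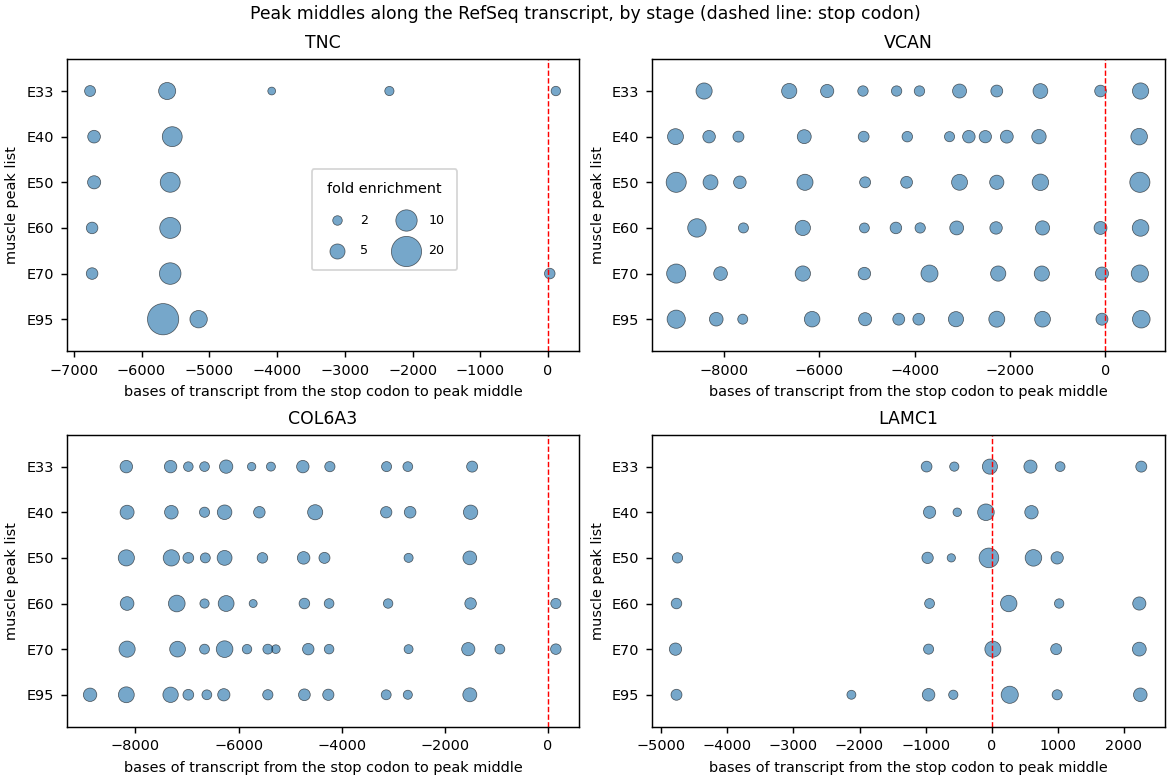
Peak middles of TNC, VCAN, COL6A3 and LAMC1 along their RefSeq transcripts, in bases from the stop codon (dashed line), by muscle stage. Circle area is proportional to fold enrichment. The largest TNC peak stays near one place in the coding sequence, with a fold of 6.40 over 1289 exonic bases at E33 and 21.4 over 690 at E95. VCAN and COL6A3 hold rows of coding peaks at each stage.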

How the data were processed

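The authors deposited TPM per gene for each library and m6A peak lists with a fold enrichment ratio per peak. Per the submitters' processing notes, Trimmomatic, HISAT2 and the build Sscrofa11.1 were used, while the quantifier, the peak caller and the versions are not given in the sources used here. From the 18 muscle input libraries, the 13334 genes averaging 1 TPM or more were scaled by median ratios over 11974 genes, and log2(TPM + 1) was tested in limma (version 3.58.1, R version 4.3.3), with 1 mean per stage, eBayes with a trend, and Benjamini-Hochberg adjustment over all genes tested at 0.05. The fit was tested on simulated data. Peaks were assigned to genes by the identifier in the lists. Members and lists were chosen with earlier results of these data known. In each role group the genes with the highest and lowest E33 to E95 change are given in every library, with the next in each direction in groups of at least 6, and for each consecutive pair the largest called change. FN1 was added after its values were seen. Alternatives were other scalings, a pseudocount of 0.1, no filter, 2 stages only, a replicate block, and libraries left out. Antibody libraries were not analysed here.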

Additional observations from a re-analysis of the deposited data

How the results depend on the processing

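Counts are matrix genes called of 40. On TPM as deposited the stage F test called 12 and E40 against E33 called 3, and also 3 without replicate 2 of E40 and replicate 3 of E50, an alternative chosen after seeing the data. E50 against E40 called 0 (limma) as deposited, after quantile normalization, with 2 stages only, with the replicate block, without both libraries, and as deposited without both, where 4, 9, 8, 8, 6 and 7 had an unadjusted p under 0.05. E60 against E50 called 0 (limma) as deposited, with 2 stages only and as deposited without both, with 15, 5 and 9 at an unadjusted p under 0.05, and 1 when rescaled without the 2 most abundant genes or quantile normalized. E70 against E60 called 0 (limma) as deposited, with a pseudocount of 0.1, with 2 stages only, with the replicate block and as deposited without both, with 3, 12, 8, 9 and 15 at an unadjusted p under 0.05, and 4, all lower, when rescaled. E95 against E70 called 1 as deposited, 12 when rescaled (2 higher, 10 lower) and 3 with 2 stages only. The cause was not tested. Leaving out 1 library gave 25 to 32 for the F test, 23 to 28 for E95 against E33, 10 to 15 for E40 against E33, 0 to 1 for E50 against E40, 1 to 2 for E60 against E50, 0 to 2 for E70 against E60 and 4 to 10 for E95 against E70. The last count was 10 without replicate 2 of E50.

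The E95 against E33 log2 change of the 21 genes whose sign turned was negative as deposited, with the same values without both libraries: COL1A1 (-0.040), COL1A2 (-0.44), COL3A1 (-0.25), COL6A1 (-0.47), COL6A2 (-0.51), COL6A3 (-0.41), COL14A1 (-0.18), COL4A2 (-0.12), HSPG2 (-0.40), NID1 (-0.54), LAMC1 (-0.077), DCN (-0.24), SPARC (-0.19), COL5A2 (-0.99), LAMB1 (-1.11), FBLN5 (-0.93), BGN (-1.09), LOX (-0.86), OGN (-0.63), FMOD (-0.62) and ELN (-0.58). NID1, COL5A2, LAMB1, FBLN5, BGN and LOX passed the test as deposited only without both libraries. When rescaled the change was negative for LAMB1 (-0.53), FBLN5 (-0.44) and BGN (-0.52), which passed the test, and for COL5A2 (-0.41), LOX (-0.27), OGN (-0.038) and FMOD (-0.028), and when quantile normalized for LAMB1 (-0.045). Without replicate 2 of E33, OGN was called higher (adjusted p = 0.0436).

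Replicate numbers did not pair the samples: deviations of same-numbered libraries correlated at -0.124 to 0.101 (median 0.0172, 1 of 45 over 0.1). With the replicate block the F test called 26, E95 against E33 27, E40 against E33 13, E60 against E50 2 and E95 against E70 6. Keeping peaks at or above their list's median fold left 14, 14, 16, 14, 15 and 14 genes with a peak from E33 to E95 and 4 and 2 in PK15 from polyA and rRNA-depleted RNA. The share over all genes at this cut was not counted. Depth is unknown in TPM, and peak lists have no replicates.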
